A study of Mus musculus with 9 samples.

Results

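Mouse liver carried 2593 regions with an XBP1 peak 6 h after partial hepatectomy, 6 h after a sham operation and 48 h after hepatectomy, but with none 48 h after sham or in basal liver. They are called hepatectomy-kept sites here, and they were chosen by merging all overlapping peaks (1 bp or more) of the 5 unsilenced lists and keeping the regions with that pattern. They made up 9.23% of the 28099 merged regions, 15.5% of the 16732 regions with a peak in both 6 h libraries, and 37.1% of the 6990 regions with a peak 48 h after hepatectomy. Presence or absence of a called peak in these 5 lists defined the sites, so their pattern over the 5 livers is a description and not a result.

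XBP1 is one of the transcription factors that carry out the unfolded protein response. Its messenger RNA is spliced by the endoplasmic reticulum sensor IRE1 when unfolded proteins accumulate, and the spliced form encodes the active factor, which switches on genes for folding, secretion and degradation of proteins. The liver secretes most plasma proteins and depends on this pathway. After partial hepatectomy the remaining hepatocytes first enter an early phase of stress and acute-phase signalling and later replicate their DNA, while a sham operation gives the anaesthesia and the abdominal incision without removal of tissue.

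The study mapped XBP1 by chromatin immunoprecipitation and sequencing (ChIP-seq, antibody M-186) in livers of wildtype C57Bl6-J mice, operated at 8 weeks of age. The unsilenced groups were basal liver and livers taken 6 h or 48 h after either operation, partial hepatectomy or sham. In 3 further groups (basal, 6 h and 48 h after hepatectomy) XBP1 had been silenced for 7 days by a short hairpin RNA (shXBP1) delivered by adenovirus after clodronate liposomes, which deplete phagocytic cells. Each group had 1 library, so no difference can be set against a spread between animals, no p-value is given, and the 95% intervals printed with shares (Clopper-Pearson) describe counting error alone. The labels do not say if chromatin was pooled from several animals, nor whether unsilenced livers received the control virus and liposomes, so silencing cannot be told apart from these treatments.

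The lists held 22071 peaks 6 h after hepatectomy, 23087 at 6 h after sham, 7212 and 4622 at 48 h after hepatectomy and sham, and 2482 in basal liver. Sequencing depth was not given in the sources used here, and absence from a list means only that no peak was called. Each peak has a score from the authors' peak caller, taken as −log10 of its p-value, and scores need not share a scale between lists. Scores of a site in several lists are printed side by side, and comparisons between lists use ranks. The rank percentile of a peak is the share of its list with the same or a lower score. Sites are named by position in mm9 (1-based), and they are not assigned to genes because the gene table used here was made on another build.

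A mirror class was counted to show what the rule gives with both operations exchanged. It comprised 886 sham-kept sites, with a peak in both 6 h libraries and 48 h after sham, and none 48 h after hepatectomy or in basal liver. Hepatectomy-kept sites were thus 2.93 times as many. The 48 h hepatectomy list is the longer of both 48 h lists, and with both cut to their top peaks at equal length the classes held 1360 and 1354 regions, a ratio of 1.00. With scores under 10 removed from all lists they held 1847 and 872 regions, and where peaks had to share 50% of either width or more, 1169 and 701. With only the 48 h lists cut to equal length, an alternative chosen after seeing the data, they held 1368 and 1363 regions, again a ratio of 1.00. The excess of hepatectomy-kept over sham-kept sites was not seen between 48 h lists of equal length. Most regions with a peak in either 48 h list also had both 6 h peaks. Lists cut to equal length therefore give kept classes of similar size largely by construction, and the ratio of 1.00 is no test of the excess. Of the regions with both 6 h peaks, 9422 had no other unsilenced peak (6 h-only sites), 1443 had a peak in all 4 operated livers but not in basal liver, and 1859 had a peak in all 5 unsilenced livers.

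Hepatectomy-kept sites were well above the middle of both 6 h lists and below the middle of the 48 h list. These scores come from the lists that chose the sites, so the ranks are a description. Their 6 h hepatectomy peaks scored from 5.47 to 268.18 with a median of 27.85, at a median rank percentile of 66.7 (quartiles 47.1 and 81.4). In the 6 h sham list they scored from 6.17 to 137.29 with a median of 24.23, at a median percentile of 71.4 (quartiles 53.3 and 83.5). At 48 h after hepatectomy the scores ran from 5.08 to 84.53 with a median of 10.42, and the median percentile was 38.2 (quartiles 20.3 and 61.9). In the 48 h list 977 of the 2593 sites (37.7%) scored below 10, where the whole list had 28.5% below that mark, and 144 (5.55%) scored 20 or more. In the 6 h hepatectomy list 108 sites (4.17%) scored below 10, beside 2865 of all 22071 peaks of that list, and in the 6 h sham list 100 (3.86%), beside 17.8%. Relative to each whole list, low scores were thus more common in the class at 48 h and less common at 6 h. The rule itself leaves out 6 h peaks absent from the other 6 h list. It also leaves out 48 h peaks shared with 48 h sham or basal liver, and its part in this pattern was not tested.

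**Figure D1:**
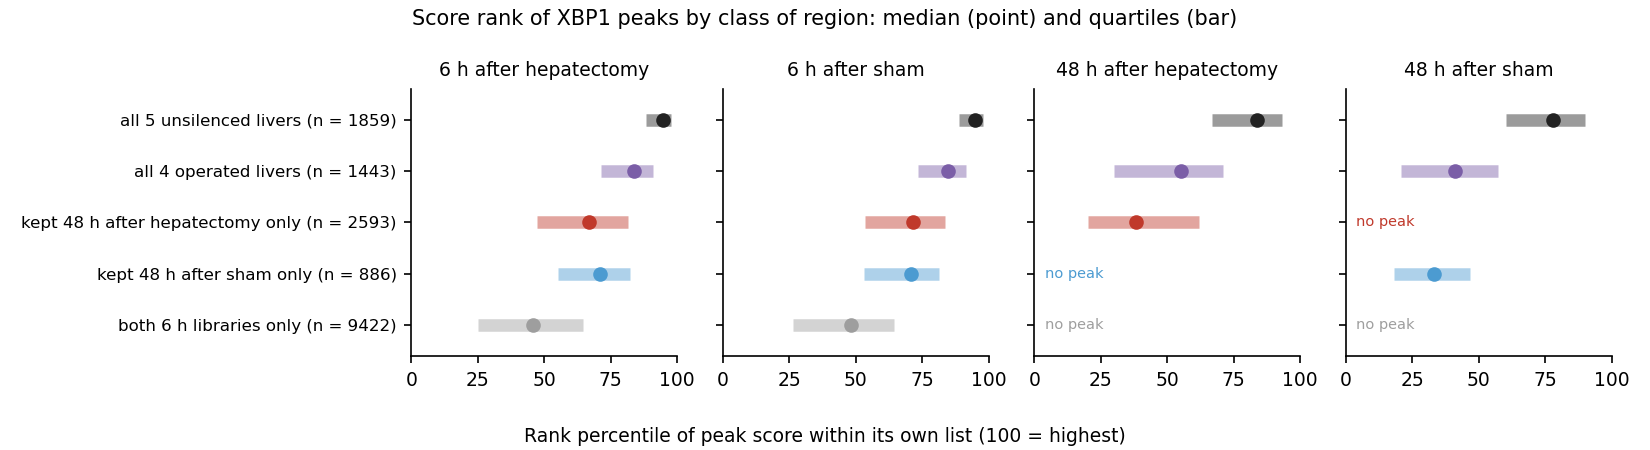
Rank percentile of the peak score within each of 4 unsilenced lists (x axis, 100 is the highest score) for 5 classes of region (y axis), with the median as a point and the quartiles as a bar. Hepatectomy-kept sites have medians of 66.7 and 71.4 in the 6 h lists and 38.2 in the 48 h hepatectomy list, between the 6 h-only sites and the sites of all 4 operated livers at 6 h.

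Sham-kept sites likewise stood higher in the 6 h lists than in the 48 h list that chose them. Their median percentile was 71.1 in the 6 h hepatectomy list, 70.9 in the 6 h sham list and 33.0 in the 48 h sham list. The 6 h-only sites lay lower at 6 h, with medians of 45.9 after hepatectomy and 48.2 after sham. Sites of all 4 operated livers lay higher, at 83.6 and 84.6, and at 55.2 in the 48 h hepatectomy list. Hepatectomy-kept sites stood between the 6 h-only sites and the sites of all 4 operated livers in both 6 h lists. This too describes lists that chose the classes.

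The order of a site between both 6 h lists differed between the kept classes. Of the hepatectomy-kept sites, 1061 (40.9%, 39.0 to 42.8%) had a higher percentile 6 h after hepatectomy than 6 h after sham, with a median difference of -3.1 percentile points (hepatectomy minus sham). Of the sham-kept sites, 466 (52.6%, 49.2 to 55.9%) did so, with a median difference of 0.9. The share was 46.8% (45.8 to 47.8%) among 6 h-only sites and 43.9% (41.4 to 46.5%) among sites of all 4 operated livers. The intervals of both kept classes did not overlap, but that of hepatectomy-kept sites overlapped that of sites of all 4 operated livers. The median difference was also negative in the latter (-1.0) and in 6 h-only sites (-2.0). A lean to the early sham list was thus not particular to hepatectomy-kept sites. The 6 h lists chose the sites and come from 1 library each, so the intervals are no test between classes. With equal numbers of peaks per pair of lists the shares of hepatectomy-kept and sham-kept sites were 41.7% and 53.2%.

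Scores of hepatectomy-kept sites went together more closely between both 6 h lists than between 6 h and 48 h. Across the 2593 sites Spearman's rho was 0.59 between the 6 h hepatectomy and 6 h sham scores. It was 0.25 between 6 h and 48 h after hepatectomy, and 0.30 between 6 h sham and 48 h hepatectomy. The same order was seen in the classes most like it. Among sham-kept sites rho was 0.50 between both 6 h lists, and 0.30 (6 h hepatectomy) and 0.23 (6 h sham) with the 48 h sham list. Among sites of all 4 operated livers it was 0.60 between both 6 h lists. There it was 0.31 and 0.42 with the 48 h hepatectomy list, and 0.41 and 0.28 with the 48 h sham list. Sites are not independent replicates and each list comes from 1 library. The 48 h hepatectomy scores of the class had a narrow range with 200 distinct values, and the part of this range in these figures was not tested.

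The share of early sites that fell into the class changed with the score at 6 h. Among the 14344 regions with both 6 h peaks and no basal peak, peaks were split into deciles of the 6 h hepatectomy list. Hepatectomy-kept sites made up 7.58% of these regions in the lowest decile, 20.6% in decile 7 and 29.4% in decile 9, and 26.3% in the highest decile. Sham-kept sites made up 1.62%, 8.65%, 11.0% and 9.71% in the same deciles. Sites of all 4 operated livers went from 1.01% in the lowest to 49.1% in the highest decile, while 6 h-only sites went from 89.8% to 14.9%. By decile of the 6 h sham list, the share of hepatectomy-kept sites went up to the top, with 26.9% in decile 8, 29.9% in decile 9 and 32.0% in the highest. The class was thus more frequent among strong than among weak early sites by both lists. Its lower share in the highest decile was seen in the hepatectomy list alone. By both lists, sham-kept sites and sites of all 4 operated livers were likewise more frequent in the highest than in the lowest decile. The 6 h lists chose the sites, so these shares are a description.

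**Figure D2:**
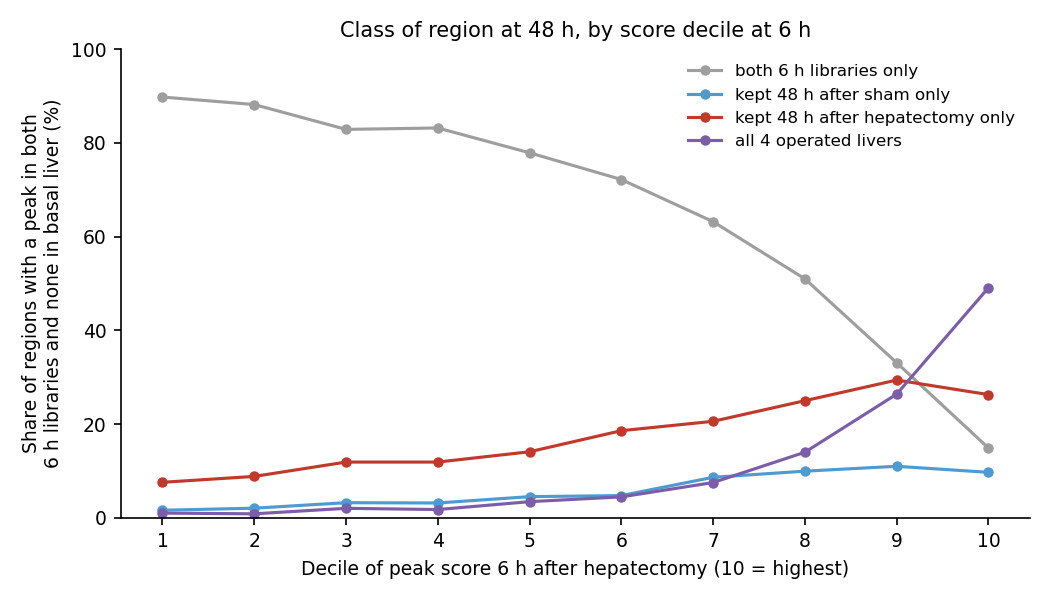
Share (y axis, percent) of the regions with a peak in both 6 h libraries and none in basal liver that fell into each of 4 classes, by decile of the 6 h hepatectomy score (x axis, 10 is the highest). The share of hepatectomy-kept sites goes from 7.58% in the lowest decile to 29.4% in decile 9, and sites of all 4 operated livers exceed it in the highest decile.

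The 10 hepatectomy-kept sites with the highest score at 48 h show how differently the class members stood at 6 h. First came chr2:119912990-119913561, with a score of 84.53 at 48 h (rank 147 of the list), 60.3 at 6 h after hepatectomy and 67.69 at 6 h after sham. Next was chr1:162009343-162009897, with 50.23 at 48 h, 84.75 at 6 h after hepatectomy and 28.73 after sham. It stood in the highest decile of the 6 h hepatectomy list (percentile 92.2) and at percentile 78.3 of the 6 h sham list. The third, chr11:83396739-83397233, scored 48.02 at 48 h, 43.82 at 6 h after hepatectomy and 57.59 at 6 h after sham, and stood higher in the 6 h sham list (percentile 93.6) than in the 6 h hepatectomy list (80.8).

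A score of 45.03 at 48 h was shared by chr9:31785511-31786172 and chr13:38646413-38646907. The former scored 100.32 and 96.08 at 6 h after hepatectomy and sham, and the latter 55.7 and 50.28. Both were at or above percentile 85.9 of each of the 3 unsilenced lists. On chromosome 17, chr17:32245637-32246278 scored 44.05 at 48 h, 127.42 at 6 h after hepatectomy and 32.72 at 6 h after sham. The site chr9:118997348-118997976 differed from these, with 43.38 at 48 h (percentile 94.1) but 20.75 at 6 h after hepatectomy (percentile 55.5) and 13.19 after sham (percentile 38.4). It was the weakest of the 10 in both early lists.

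The last 3 of the 10 were chr5:74812054-74812845, chr3:88298721-88299459 and chr1:74765731-74766218. The first scored 38.9 at 48 h, 190.78 at 6 h after hepatectomy and 74.9 after sham. The second scored 38.03, 123.64 and 27.85 in the same order, and the third 38.03, 32.15 and 51.22. A score of 38.03 was shared by 5 sites, of which the 2 with the highest 6 h hepatectomy score are among the 10. In all, 5 of the 10 were in the highest decile of the 6 h hepatectomy list and 6 in that of the 6 h sham list. The nearest 48 h sham peak lay 2.97 kb from the chromosome 1 site at 74765731 and 7.57 kb from the chromosome 3 site. For the other 8 it lay between 19.1 kb (chr11:83396739-83397233) and 204 kb (chr17:32245637-32246278) away.

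**Figure D3:**
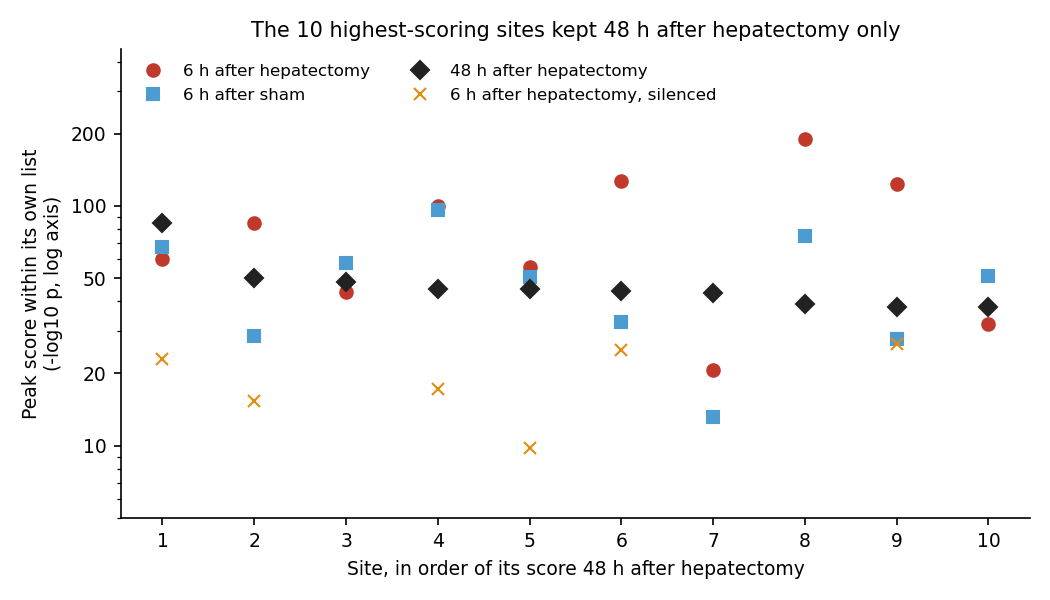
Peak score (y axis, log axis, −log10 of p within each peak's own list) of the 10 hepatectomy-kept sites with the highest score at 48 h (x axis, in the order given in the text), in the unsilenced lists and in the silenced 6 h list, whose scores are set side by side without a comparison of size between lists. Sites 4, 6, 8 and 9 score above 100 at 6 h after hepatectomy, site 7 scores 20.75 there, and 4 sites have no peak in the silenced library.

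The 5 sites of the class with the highest 6 h hepatectomy score stood at widely different ranks at 48 h. On chromosome 18, chr18:85119685-85121452 had the highest score 6 h after hepatectomy (268.18), with 73.5 at 6 h after sham, and its 48 h signal was called as 3 peaks of which the highest scored 31.58. It was followed by chr5:123086865-123087503 with 232.64, 89.22 and 18.71 at 6 h after hepatectomy, 6 h after sham and 48 h after hepatectomy. The site chr4:135072087-135072810 scored 216.96, 74.48 and 9.35, and chr14:27817893-27818565 scored 215.01, 71.28 and 11.53. The fifth, chr12:55935892-55936591, scored 197.63, 23.6 and 17.46. All of them were at or above percentile 97.8 of the 6 h hepatectomy list, and their 48 h peaks were at percentiles 90.3, 77.4, 27.8, 47.7 and 74.6 in the order given. The 48 h peak was thus above the class median of 38.2 at all but the chromosome 4 site.

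Ranked by the 6 h sham score, the first site was chr12:83571466-83572198, with 137.29 after sham, 152.41 after hepatectomy and 17.39 at 48 h. It was followed by chr2:84615508-84616329 with 113.11, 148.97 and 9.35 in the same order, and by chr9:31785511-31786172, named above. The site chr10:23531525-23532216 scored 94.25 after sham, 50.44 after hepatectomy and 30.79 at 48 h, and chr3:37860894-37861604 scored 90.89, 136.33 and 16.22. The nearest 48 h sham peak was 858 kb from the chromosome 12 site and 1348 kb from the chromosome 3 site, but 13.2 kb from the chromosome 2 site.

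At the threshold of the rule the 48 h calls were as weak as a list allows. The lowest 48 h hepatectomy score in the class, 5.08, belonged to chr1:75211020-75211807, chr17:27689601-27690294 and chr3:138021857-138022402, which scored 34.13, 18.5 and 13.19 at 6 h after hepatectomy. Just outside the class lay regions of all 4 operated livers with the weakest 48 h sham peaks. These were chrX:98527593-98528227 with a sham score of 5.08, chr12:81236110-81236668 with 5.31 and chr10:77088864-77089795 with 5.86. Their 48 h hepatectomy scores were 15.01, 7.66 and 11.53.

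Most 48 h peaks of the class lay inside the broader 6 h peaks. The median width was 488 bp at 6 h after hepatectomy, 490 bp at 6 h after sham and 258 bp at 48 h, where the medians of the whole lists were 429, 412 and 290 bp. The 48 h peak was wholly inside the 6 h hepatectomy peak at 2044 sites (78.8%) and inside the 6 h sham peak at 2027 (78.2%). The median distance between the midpoints of the 48 h and the 6 h hepatectomy peak was 48.5 bp, and between both 6 h peaks it was 38.5 bp. A single peak of each of the 3 lists was merged at 2467 of the 2593 sites, so few regions were joined from several peaks. The widest were chr8:114166267-114168560 (2294 bp), chr8:96694794-96696956 (2163 bp) and chr1:127456649-127458698 (2050 bp), where the 48 h peaks had 470, 289 and 453 bp.

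The silenced libraries were not used to choose the sites. Silencing cannot be told apart from the virus and liposomes, so a kept or lost peak does not show whether a signal came from XBP1. Of the 2593 hepatectomy-kept sites, 611 (23.6%, 21.9 to 25.2%) still carried a peak when XBP1 was silenced (6 h after hepatectomy), and 1982 did not. Over all merged regions the share was 14.9%, and over the regions with a peak in both 6 h libraries it was 24.0%. Both backgrounds include the 1859 sites of all 5 unsilenced livers, of which 1534 (82.5%) had a silenced 6 h peak. The rule leaves those sites out, so the closeness of the class to 24.0% is not a like comparison. The share was 25.8% (23.0 to 28.9%) among sham-kept sites, 7.31% (6.79 to 7.86%) among 6 h-only sites and 51.4% (48.7 to 54.0%) among sites of all 4 operated livers. Under silencing the peaks of the class were weak, with scores from 5.27 to 128.59 and a median of 12.04, at a median percentile of 36.2 of the silenced list.

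The share with a silenced peak went up steeply with the 6 h score, so classes were also set side by side within deciles of the 6 h hepatectomy list. Among hepatectomy-kept sites it was 4.00% in the lowest decile (3 of 75), 11.9% in decile 6, 22.9% in decile 8, 41.2% in decile 9 and 75.8% (69.5 to 81.4%) in the highest. Among 6 h-only sites it was 0.45%, 5.02%, 17.0%, 33.6% and 65.0% in these deciles. Hepatectomy-kept sites had the higher share in 10 of 10 deciles, and the 95% intervals did not overlap in 5 of them. Against sham-kept sites they were higher in 5 deciles and lower in 5, with overlapping intervals throughout. Over all deciles the share was below that of sham-kept sites with intervals apart under 2 alternatives, at 21.7% (19.4 to 24.2%) against 29.4% (26.0 to 32.9%) with an overlap of 50% and at 21.7% (19.8 to 23.6%) against 29.0% (26.0 to 32.2%) with a minimum score of 10. Against sites of all 4 operated livers they were lower in 8 of 10 deciles, with intervals apart in 3. With deciles of the 6 h sham list the share exceeded that of 6 h-only sites in 10 of 10, with intervals apart in 7. Score still varies within a decile, and what is left of its part in these differences was not tested.

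**Figure D4:**
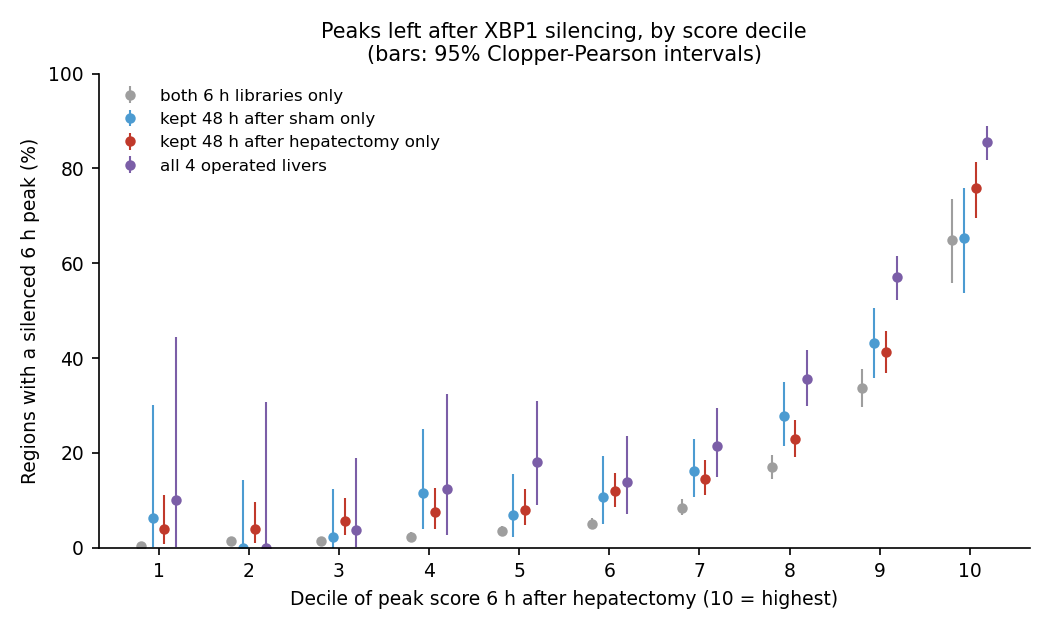
Share of regions with a peak in the silenced 6 h library (y axis, percent, with 95% Clopper-Pearson intervals) by decile of the 6 h hepatectomy score (x axis) for 4 classes of region. All classes go up with the score, hepatectomy-kept sites lie above 6 h-only sites in each decile, and their intervals overlap those of sham-kept sites.

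Hepatectomy-kept sites with a silenced peak were the stronger ones at 6 h. Their median percentile was 83.6 in the 6 h hepatectomy list and 82.4 in the 6 h sham list, against 61.1 and 68.6 for the 1982 sites without a silenced peak. In the 48 h hepatectomy list the medians were 47.7 and 38.2. By decile of the 48 h score the share went from 15.1% (49 of 324) in the lowest to 50.0% (13 of 26) in the highest.

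Among the named sites, 6 of the 10 with the highest 48 h score had a silenced 6 h peak. Their silenced scores were 23.06 (chr2:119912990-119913561), 15.32 (chr1:162009343-162009897), 17.2 (chr9:31785511-31786172), 9.77 (chr13:38646413-38646907), 24.95 (chr17:32245637-32246278) and 26.63 (chr3:88298721-88299459). The 5 sites with the highest 48 h score and no silenced peak were chr11:83396739-83397233, chr9:118997348-118997976, chr5:74812054-74812845, chr1:74765731-74766218 and chr14:61286224-61286685. The last scored 38.03 at 48 h, 29.08 at 6 h after hepatectomy and 39.35 at 6 h after sham. The chromosome 5 site stood out among them, since at percentile 97.6 of the 6 h hepatectomy list it had no silenced peak. By contrast, the 5 sites with the highest 6 h hepatectomy score and the 5 with the highest 6 h sham score all had one. Chosen after its value was seen, chr2:72676030-72676693 had the highest silenced score of the class (128.59), with 134.88, 24.58 and 26.75 at 6 h after hepatectomy, 6 h after sham and 48 h after hepatectomy.

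Peaks in the other silenced libraries were nearly absent from the class, as from the other classes without a basal peak. None of the 2593 sites had a peak in silenced basal liver, which allows a share of up to 0.116% when taken as 3 counts (0.142% as the Clopper-Pearson upper bound), against 0.424% of all merged regions and 0.711% of regions with both 6 h peaks. One site, chr11:48684307-48685386, had a peak in the library silenced and taken 48 h after hepatectomy (1 of 2593, 0.0386%, 0.000976 to 0.215%), against 0.249% and 0.418%. That site scored 33.5 at 6 h after hepatectomy, 22.36 after sham and 7.29 at 48 h, and its silenced peak scored 10.03. These silenced lists held 177 and 102 peaks in all, so a low share in the class cannot be told apart from the shortness of these lists. Of the sites of all 5 unsilenced livers, 6.19% and 3.44% had a peak in them. Those sites held 115 of the 119 merged regions with a silenced basal peak and 64 of the 70 with a silenced 48 h peak. The rule leaves out regions with a basal peak, so the shares over all merged regions and over regions with both 6 h peaks are unlike backgrounds. The 6 h-only sites had 0 and 2 of 9422, sham-kept sites 1 and 0 of 886, and sites of all 4 operated livers 2 and 2 of 1443.

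Hepatectomy-kept sites were found on all 21 chromosomes. On chromosomes 1 to 19 and X they made up between 13.8% (chromosome 18, 74 of 537) and 18.3% (chromosome 14, 107 of 584) of the regions with both 6 h peaks, beside 15.5% genome-wide. The 95% intervals were 11.0 to 17.0% on chromosome 18 and 15.3 to 21.7% on chromosome 14. Chromosome 10 (169 of 941) was the only one whose interval, 15.6 to 20.6%, left out the genome-wide share, and no test was made over the chromosomes. On chromosome Y there was 1 such site among 2 regions.

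**Figure D5:**
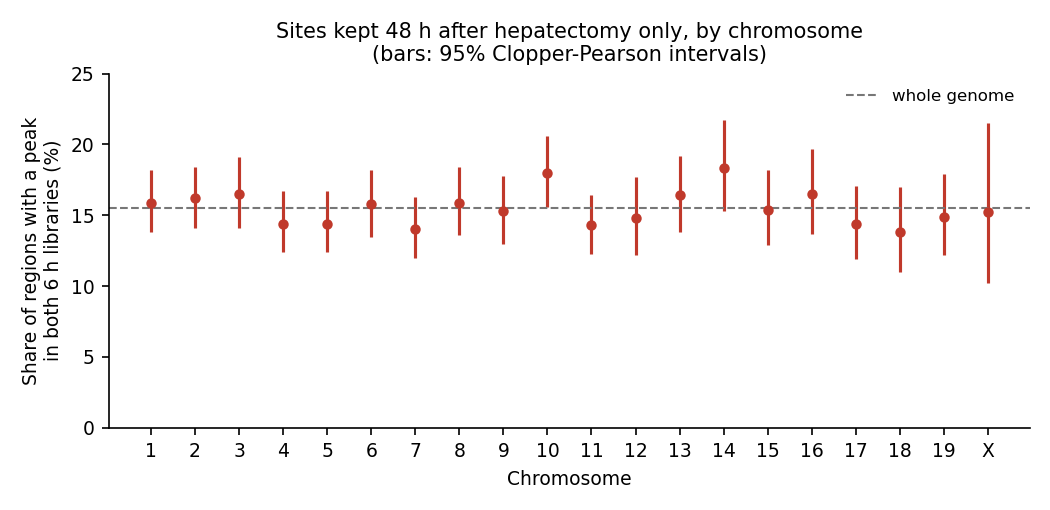
Share of the regions with a peak in both 6 h libraries that are hepatectomy-kept sites (y axis, percent, with 95% Clopper-Pearson intervals) on chromosomes 1 to 19 and X (x axis), with the genome-wide share of 15.5% as a dashed line. The shares lie between 13.8% on chromosome 18 and 18.3% on chromosome 14.

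Distances to the lists from which the sites were absent are a description. The rule bars overlap with those lists, and these distances were not measured for other classes. The nearest 48 h sham peak lay within 1 kb of 74 sites (2.85%, 2.25 to 3.57%) and within 10 kb of 429 (16.5%), at a median distance of 63.1 kb. For the nearest basal peak the numbers were 27 (1.04%) and 226 (8.72%), at a median of 133 kb. A region with a peak in all 5 unsilenced livers lay within 10 kb of 6.48% (5.56 to 7.50%) of the hepatectomy-kept sites. That share was 7.90% (6.21 to 9.88%) for sham-kept sites, 7.89% (7.35 to 8.45%) for 6 h-only sites and 8.25% (6.88 to 9.79%) for sites of all 4 operated livers. The lower share of hepatectomy-kept sites had an interval that overlapped each of these. Within 1 kb the shares were 0.964% (0.625 to 1.42%), 1.58% (0.866 to 2.64%), 1.74% (1.49 to 2.03%) and 2.08% (1.41 to 2.95%) in the same order. There the interval of hepatectomy-kept sites lay below that of 6 h-only sites and overlapped the others. Within 100 kb the shares were 35.1%, 36.8%, 34.1% and 38.6%.

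Another hepatectomy-kept site lay within 10 kb of 294 sites (11.3%) and within 100 kb of 1166 of the 2593, and the median distance to the next was 123 kb. Among the more numerous 6 h-only sites, 37.2% had another of their class within 10 kb and 81.4% within 100 kb. The shares were lower in the smaller classes. They were 5.3% and 23% for sham-kept sites, and 7.28% and 34.7% for sites of all 4 operated livers. For sites of all 5 unsilenced livers they were 8.28% and 38.1%. Such shares depend on the number of sites in a class, so they do not compare clustering. Of the 2153 fixed windows of 100 kb that held a site, 369 held 2 or more. The window with the most, on chromosome 13 from 52900001 to 53000000, held 5 among 12 merged regions. They were chr13:52916908-52917742, chr13:52923383-52924575, chr13:52926678-52927216, chr13:52927435-52928111 and chr13:52987319-52987699. Their scores ran from 18.37 to 49.46 at 6 h after hepatectomy, from 18.73 to 43.38 at 6 h after sham and from 9.35 to 18.75 at 48 h. That window held 8 and 11 peaks in the 6 h hepatectomy and sham lists and 5 at 48 h after hepatectomy, and none in the 48 h sham list, the basal list or any silenced list.

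Several windows held 4 sites, of which 2 are described. With chromosome names sorted as text, those on chromosomes 10 and 11 came first. On chromosome 10, from 95100001 to 95200000, the sites were chr10:95106534-95107084, chr10:95142896-95144092, chr10:95145454-95146078 and chr10:95178298-95178814. All but the third had a silenced 6 h peak, with scores of 15.26, 8.01 and 10.99, and the window had no 48 h sham and no basal peak. On chromosome 11, from 120300001 to 120400000, they were chr11:120328631-120329439, chr11:120352216-120353155, chr11:120353800-120354210 and chr11:120371108-120371727. Only the last of these had a silenced peak (12.69). This window differed from the other 2, since it also held 3 peaks of the 48 h sham list and 2 regions of all 4 operated livers. The sham peaks lay from 1.06 kb to 21.4 kb from the sites.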

How the data were processed

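Peak lists of 8 immunoprecipitated libraries were used, 5 unsilenced and 3 silenced, and the input sample was not analysed here. The submitters' processing notes name Bowtie2, MACS 1.4.2 and the build mm9. Their settings, depth and any use of the input in calling are not stated there. The score that the authors deposited with each peak was read as −log10 of p because in 7 of the 8 lists the lowest score lay just above 5. Per the labels' protocols, tissue was fixed for 15 min and chromatin was sonicated to 300 bp on average.

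Lists were merged and classed with pandas 2.3.3 and NumPy 2.4.6 under Python 3.11.15, intervals came from SciPy 1.17.1 and figures from matplotlib 3.10.9. Both 28099 regions and 2593 sites were also counted with bedtools 2.31.1, and the code was tested on simulated lists. A silenced peak was assigned to a region that it overlapped by at least 1 bp. Tied scores shared a decile. Where a region held several peaks of a list, the highest score was used.

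The sites and comparisons were chosen with earlier results of these data known. Named were the 10 sites with the highest 48 h hepatectomy score, the 5 highest by each 6 h score and by the 48 h score without a silenced 6 h peak, those with another silenced peak, the 3 lowest, the 3 widest, and the sites of the 3 windows with the most. The planned gene lists, cell type markers and motif counts need an annotation or genome of mm9 and were not run. The alternatives tried were equal lengths of both 48 h and both 6 h lists or, chosen after seeing the data, of the 48 h lists only, merging within 500 bp, no excluding peak within 1 kb, a minimum score of 10, midpoints no more than 250 bp apart, an overlap of 50% or more in both directions, and only peaks up to 2 kb wide on chromosomes 1 to 19 and X.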

Additional observations from a re-analysis of the deposited data

How the results depend on the processing

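No paired analysis was possible because each condition had 1 library, and for the same reason no library could be left out. Over 8 alternatives and 8 results, 37 of 64 values stayed within 1.5 times the reported count or within the 95% interval of the reported value. The number of hepatectomy-kept sites was 1360 with equal list lengths and 1169 where peaks had to overlap by 50% or more in both directions. The ratio to sham-kept sites was 1.00 with equal lengths, 1.67 with 50% overlap and 2.12 with a score of at least 10. The share with a silenced 6 h peak was 28.5%, 21.7% and 21.7% under the same settings. It lay above that of 6 h-only sites and below that of sites of all 4 operated livers under each of the 9 settings run. It also lay below that of sham-kept sites under each, with intervals apart only for the 50% overlap and the minimum score, and without a test. The single silenced 48 h peak fell away (share 0) with midpoints within 250 bp, 50% overlap, a score of at least 10 and equal lengths. In silenced basal liver, 1 of 2511 sites (0.0398%) had a peak with midpoints within 250 bp, and the share stayed 0 under the other alternatives. Median percentiles in the 48 h hepatectomy list were 32.8 (equal lengths), 49.4 (50% overlap) and 37.4 (score of at least 10). In the 6 h hepatectomy list they were 72.4, 64.4 and 69.7, and in the 6 h sham list 75.5 with equal lengths and 73.6 with a score of at least 10. With equal lengths of the 48 h lists only, there were 1368 sites, a ratio of 1.00, a silenced 6 h share of 28.4%, a silenced 48 h share of 0, and median percentiles of 32.8 (48 h hepatectomy), 72.4 (6 h hepatectomy) and 76.6 (6 h sham). Percentiles shift by construction where lists are shortened, and 48 h lists of equal length give kept classes of similar size largely by construction. The share of sites ranking higher 6 h after hepatectomy than 6 h after sham, a result added after seeing the data, lay between 37.6% and 43.1% for hepatectomy-kept and between 50.5% and 56.9% for sham-kept sites. Unknown depth limits each statement on absence from a list.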

Other observations

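Regions that differed from hepatectomy-kept sites by 1 list showed how strongly each list narrowed the class. With a basal peak as well there were 287 regions, with median scores of 40.69 at 6 h after hepatectomy, 34.08 at 6 h after sham, 13.83 at 48 h and 11.11 in basal liver. Of these, 124 (43.2%, 37.4 to 49.2%) had a silenced 6 h peak, and their interval lay above that of the hepatectomy-kept sites. Without a 6 h hepatectomy peak there were 325 regions, seen at 6 h after sham and at 48 h after hepatectomy, with median scores of 14.14 and 9.35. Only 5 of them (1.54%, 0.501 to 3.55%) had a silenced peak. Without a 6 h sham peak there were 165 regions, with a median score of 15.26 at 6 h after hepatectomy, and 14 of them (8.48%, 4.72 to 13.8%) had a silenced peak. Regions present at both hepatectomy times and absent from all sham lists and basal liver were thus fewer than those seen after sham and, at 48 h, after hepatectomy.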
